A study of Mus musculus with 12 samples.

Results

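The p53 target genes described here are 34 genes listed as targets of p53, a transcription factor that responds to DNA damage. Whether each is a target in mouse lung was not tested. Of these genes 31 could be measured in the left lung of mice 5 days after bleomycin. A member was taken as measured when the probe-to-gene table gave a transcript cluster, the array's unit for a gene, with that symbol alone. Each of the 31 had exactly 1 such cluster, among 23410 clusters with a gene symbol. The remaining 3 members, Cdkn1a, Bax and Gdf15, were not analysed here. The only cluster listing Cdkn1a, the gene of the cell cycle inhibitor p21, also carries the symbol of another transcript, and none was found under the symbols Bax and Gdf15. Trp53, which encodes p53 itself, was likewise not analysed here.

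p53 is kept scarce in unstressed cells because the ubiquitin ligase Mdm2 marks it for destruction. Breaks in DNA activate kinases that free p53 from Mdm2, and p53 then binds its response elements and raises genes that halt the cell cycle, repair DNA, kill the cell or, as Mdm2 does, end the signal. Bleomycin is a drug that breaks DNA strands and, given through the trachea, injures the alveolar epithelium of the lung.

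RNA was hybridised to 12 arrays, 1 for each mouse, in 4 groups of 3 mice. All mice were of the mixed C57/129S background, 2 months old and female by their labels, where the study's methods give a somewhat older age. The groups were Fra-1+/+ mice given 30 µL of PBS (WTC) or 0.075 U of bleomycin in the same volume (WTT), and Fra-1 deficient mice given PBS (KOC) or bleomycin (KOT). Fra-1, encoded by Fosl1, is a subunit of the transcription factor AP-1, and the comparisons ask how the lung responds to bleomycin with and without it. By the study's methods every mouse carried floxed Fra-1 alleles, and the deficient ones also carried a Meox2 (Sox2)-Cre transgene that is active in the embryo and not in extra-embryonic tissue.

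Values are log2 signals, normalised over all samples, so that a difference of 1 is a 2-fold change. Array medians lay between 7.14 and 7.22 and the mean correlation of an array with the others of its group between 0.987 and 0.991. The alveolar type 2 cell list, 8 genes of lung surfactant and its secretion, averaged between 11.80 and 12.65 in every mouse, as a lung sample should. Xist, the transcript of the inactive X of females, lay between 4.47 and 4.94 while the Y-linked Eif2s3y lay between 8.52 and 8.93, so that 12 of 12 arrays did not match the labelled sex. Fosl1 was 6.37, 6.76 and 6.86 in WTC, 7.81, 8.19 and 8.32 in WTT, 6.68, 6.26 and 6.56 in KOC, and 7.33, 7.32 and 7.28 in KOT. Every KOT mouse was below every WTT mouse, but the fitted difference of -0.80 had an adjusted p of 0.160 (it passed the LPE test named below, at -0.87), the PBS groups overlapped, and where the probes lie relative to the floxed part is not given in the sources used here.

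The p53 targets, chosen with earlier results of these data known, moved mostly upward in both genotypes. The shares that follow describe this list and are not an independent test of it. Their median log2 fold change was 0.33 in Fra-1+/+ lungs and 0.30 in deficient lungs, where the median of all 23410 clusters was 0.02 in each. In Fra-1+/+ lungs 16 of 31 members (51.6%) rose with bleomycin at an adjusted p below 0.05, beside 10.2% of all clusters, and 5 (16.1%) fell, beside 11.3%. In Fra-1 deficient lungs 14 (45.2%) rose, beside 7.42% of all clusters, and 3 (9.68%) fell, beside 7.98%. Every member that rose or fell in the deficient lungs did so in the Fra-1+/+ lungs too. These were 14 of the 16 Fra-1+/+ increases (87.5%), all 14 of the deficient ones, 3 of the 5 Fra-1+/+ decreases, and all 3 of the deficient ones. The 14 that rose in both genotypes were Mdm2, Ccng1, Zmat3, Plk2, Plk3, Psrc1, Apaf1, Aen, Eda2r, Polk, Sesn2, Phlda3, Epha2 and Sulf2, or 45.2% of members beside 5.61% of all clusters. The 3 that fell in both were Xpc, Rrm2b and Dram1, or 9.68% beside 6.22%.

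Averaged over both genotypes, 19 members rose (61.3%, beside 15.7% of all clusters) and 4 fell (12.9%, beside 16.3%). Those added by the average were Gadd45a, Pmaip1 and Ei24. In 18 members every bleomycin mouse was above every PBS mouse of its genotype in both genotypes (58.1%, beside 10.6% of all clusters), and in 4 every bleomycin mouse was below (12.9%, beside 10.4%). Single mice differed little in this respect: between 24 and 25 of the 31 members lay above the PBS mean of the same genotype in each of the 6 bleomycin lungs, and between 11 and 15 lay more than 0.5 above it. In the PBS lungs between 9 and 20 members lay above that mean. Such counts per mouse were not made over all clusters. By group means 25 of 31 members rose in Fra-1+/+ lungs, beside 12623 of 23410 clusters. In deficient lungs 24 members did, beside 12621 clusters. No PBS mouse had a member more than 0.5 above that mean.

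**Figure D1:**
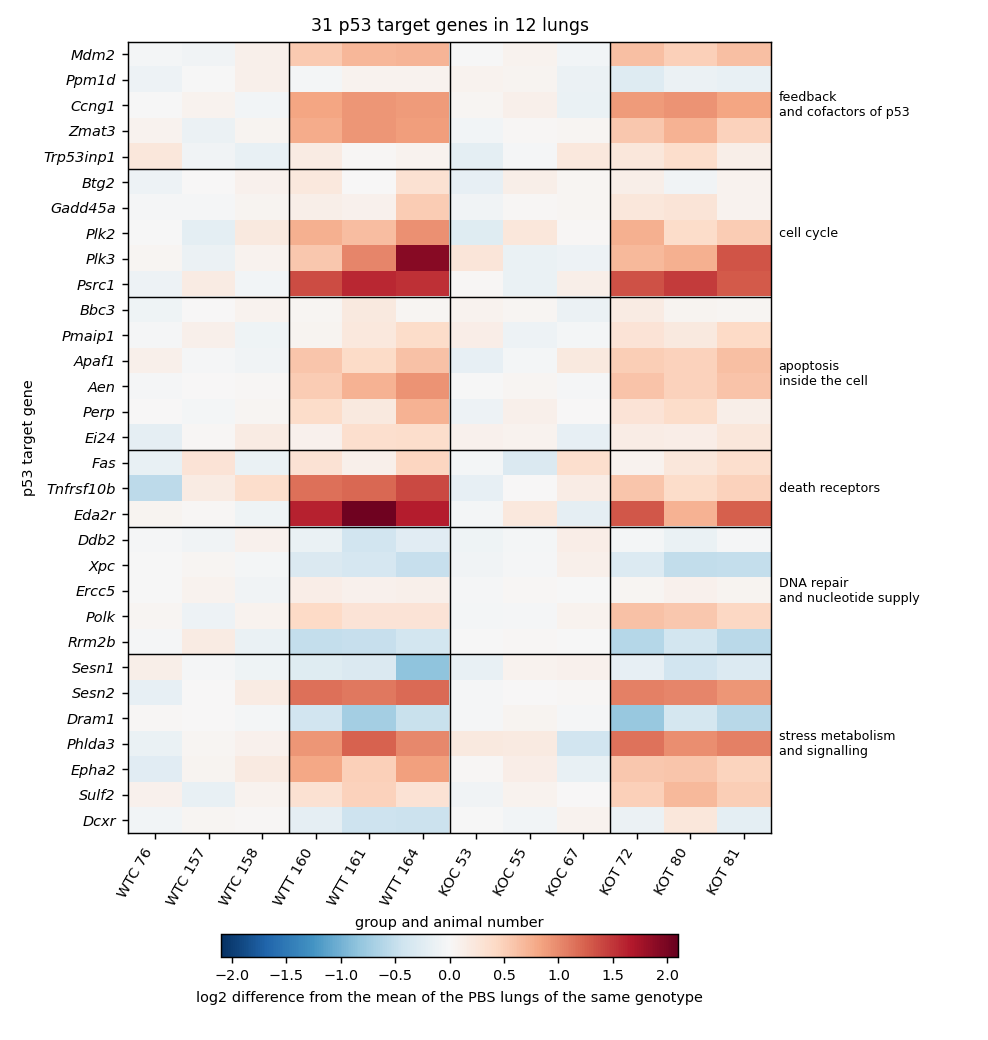
Log2 difference of each of the 31 measured p53 target genes (rows, grouped by role) from the mean of the PBS lungs of the same genotype, in each of the 12 mice (columns, named by group and animal number). Between 24 and 25 of 31 members are above the PBS mean (red) in each bleomycin mouse, and between 9 and 20 in each PBS mouse. Xpc, Rrm2b, Sesn1, Dram1 and, more weakly, Ddb2 are below it (blue) in all 6 bleomycin mice, while Ppm1d, Btg2 and Dcxr differ in sign between bleomycin mice.

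p53 binds DNA as a tetramer on pairs of a decamer, and the sequence before the start of these genes is shown for where such decamers stand. RefSeq promoter windows (GRCm38.p6, 250 bases before to 50 after the start of transcription) matched 23 of the 31 members. A p53 half-site, a decamer whose consensus pattern is its own reverse complement, so that a search of either strand finds the same places, was in a window of 8 members (34.8%: Aen, Ccng1, Ei24, Gadd45a, Mdm2, Polk, Ppm1d and Sesn1), beside 9.55% of 27025 genes. Every base of a half-site had to match the pattern. A pair of such half-sites at most 13 bases apart was in no member's window and in 0.074% of genes. Pairs with a mismatch were not counted, such as the Ccng1 half-site printed below with the decamer directly before it. The AP-1 site, TGACTCA or its complement TGAGTCA, was in 1 member's window (4.35%), that of Fas, beside 5.95% of genes. Of the 8 members with a half-site, Aen, Ccng1, Mdm2 and Polk rose in both genotypes and are printed here with Sesn1, which fell in Fra-1+/+ lungs, and with Fas for its AP-1 site. Capitals mark the half-site or the AP-1 site.
Ccng1, chr11:40755427-40755506, minus strand: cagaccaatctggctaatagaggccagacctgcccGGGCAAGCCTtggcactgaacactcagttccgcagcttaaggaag
Aen, chr7:78895902-78895981, plus strand: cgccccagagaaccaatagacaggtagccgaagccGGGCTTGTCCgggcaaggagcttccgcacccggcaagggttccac
Mdm2, chr10:117710900-117710979, minus strand: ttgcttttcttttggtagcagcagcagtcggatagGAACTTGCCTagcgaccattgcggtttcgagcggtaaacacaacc
Polk, chr13:96519374-96519437, minus strand: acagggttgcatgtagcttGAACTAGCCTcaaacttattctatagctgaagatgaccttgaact
Sesn1, chr10:41887231-41887310, plus strand: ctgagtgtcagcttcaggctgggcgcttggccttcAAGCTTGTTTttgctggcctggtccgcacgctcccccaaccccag
Fas, chr19:34290413-34290489, plus strand: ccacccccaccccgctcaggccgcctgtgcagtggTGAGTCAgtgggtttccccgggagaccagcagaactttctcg
The capitals end 176 bases before the start in Ccng1, 112 in Aen, 177 in Mdm2, 222 in Polk, 164 in Sesn1 and 205 in Fas. Such a match is a run of letters in this window and not a measured binding site, and response elements also lie outside it.

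Among the genes that act on p53 itself, 3 of 5 rose in each genotype, beside 10.2% of all clusters in Fra-1+/+ and 7.42% in deficient lungs. Mdm2, the ligase that removes p53, was 9.10, 9.07 and 9.25 in WTC and 9.69, 9.84 and 9.85 in WTT, and 9.16, 9.23 and 9.10 in KOC and 9.79, 9.67 and 9.79 in KOT. No bleomycin mouse overlapped a PBS mouse, and the rise was 0.66 ± 0.08 (SE) in Fra-1+/+ lungs (1.58-fold, adjusted p = 4.25e-04) and 0.59 ± 0.08 in deficient lungs (1.5-fold, adjusted p = 0.00113). Ccng1, cyclin G1, which recruits a phosphatase to Mdm2, was 11.31, 11.40 and 11.26 in WTC, 12.15, 12.25 and 12.22 in WTT, 11.48, 11.54 and 11.30 in KOC, and 12.33, 12.38 and 12.27 in KOT. Its increase was 0.89 ± 0.08 in each genotype (1.85-fold, adjusted p = 1.00e-04 and 1.56e-04), so the groups stood far apart with little spread.

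Zmat3, a zinc finger RNA-binding protein, was 8.13, 7.93 and 8.11 in WTC, 8.84, 8.98 and 8.94 in WTT, 8.21, 8.30 and 8.31 in KOC, and 8.85, 9.0 and 8.76 in KOT. It rose by 0.86 ± 0.08 (adjusted p = 1.52e-04) and by 0.60 ± 0.08 (adjusted p = 0.00138). Every KOC mouse was above every WTC mouse, a difference that did not pass in the limma fit (adjusted p = 0.455). Aen, Perp, Eda2r, Tnfrsf10b and Dram1 also separated the PBS groups this way, and Gadd45a and Dcxr the other way. Between the bleomycin groups, Ccng1 was higher and Fas lower in every KOT mouse than in any WTT mouse, and neither difference passed. An exact test of 3 mice against 3 cannot go below p = 0.1, and the share of all clusters so separated was not counted. The remaining genes that act on p53 itself did not pass the test in either genotype. Ppm1d, the Wip1 phosphatase that switches off the damage kinases, changed by 0.04 ± 0.08 and -0.18 ± 0.08, and Trp53inp1, a p53 cofactor, by 0.09 ± 0.12 and 0.25 ± 0.12.

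Of the 5 measured members of the cell cycle group, 3 rose in each genotype, beside 10.2% and 7.42% of all clusters. Psrc1, a spindle protein, had the smallest p of all members in the mean response. It was 6.77, 7.06 and 6.82 in WTC, 8.26, 8.46 and 8.41 in WTT, 6.96, 6.80 and 7.06 in KOC, and 8.28, 8.41 and 8.23 in KOT. The bleomycin mice were all more than 1 unit above the PBS mice, and the increases were 1.50 ± 0.10 (2.82-fold, adjusted p = 5.36e-05) and 1.37 ± 0.10 (2.58-fold, adjusted p = 8.69e-05).

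Plk2 and Plk3, polo-like kinases of the stress response, varied more between mice. Plk2 rose by 0.79 ± 0.15 (adjusted p = 0.00353) in Fra-1+/+ and 0.55 ± 0.15 (adjusted p = 0.0268) in deficient lungs, where the call was lost without KOC 53 or 67 or KOT 72 or 81 (0.42 to 0.67 over all arrays left out in turn). Plk3 ranged from 8.40 to 9.75 in WTT and from 8.57 to 9.21 in KOT, against 7.71 to 7.91 in WTC and 7.75 to 8.15 in KOC. Its increase was 1.17 ± 0.28 (adjusted p = 0.0123) and 0.91 ± 0.28 (adjusted p = 0.0473), and the call in deficient lungs was lost without any 1 of the 6 deficient mice, of the WTC mice or WTT 161 (0.71 to 1.04 over all arrays left out in turn). Gadd45a, a growth arrest gene, changed by 0.25 ± 0.11 (0.11 without WTT 164) and 0.20 ± 0.11 and passed only on average over the genotypes (0.22 ± 0.08, adjusted p = 0.0457). That call was lost without any array other than WTT 160, WTT 161 or KOT 81, at values from 0.15 to 0.24. Btg2, an antiproliferative factor, did not pass, at 0.19 ± 0.10 and 0.04 ± 0.10.

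The members that act in apoptosis inside the cell split by strength. Aen, an exonuclease that digests DNA in dying cells, was 7.47, 7.49 and 7.51 in WTC, 8.02, 8.22 and 8.44 in WTT, 7.58, 7.63 and 7.57 in KOC, and 8.18, 8.07 and 8.20 in KOT. It rose by 0.73 ± 0.09 (1.66-fold, adjusted p = 5.59e-04) and 0.56 ± 0.09 (1.47-fold, adjusted p = 0.00291), from PBS groups whose mice differed by less than 0.1. Apaf1, the scaffold of the apoptosome that activates caspase-9, was 8.85, 8.72 and 8.67 in WTC, 9.33, 9.15 and 9.36 in WTT, 8.52, 8.65 and 8.89 in KOC, and 9.20, 9.17 and 9.32 in KOT. It rose by 0.53 ± 0.10 (adjusted p = 0.00393) and 0.54 ± 0.10 (adjusted p = 0.00511), with no overlap in either genotype.

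Perp, a desmosomal membrane protein, rose by 0.44 ± 0.12 (adjusted p = 0.0239) in Fra-1+/+ lungs and changed by 0.26 ± 0.12 (adjusted p = 0.178) in deficient lungs, a contrast whose difference of -0.18 ± 0.17 was not past the test. Without any of WTC 76, 157 or 158 or WTT 164 the Fra-1+/+ call for Perp was lost, with values from 0.29 to 0.56 over all arrays left out in turn. Of the BH3-only proteins that unlock the mitochondrial pathway, Bbc3 (Puma) did not pass, at 0.10 ± 0.08 and 0.09 ± 0.08, and Pmaip1 (Noxa) passed only in the mean response (0.26 ± 0.07, adjusted p = 0.0156), though without WTT 160 it passed in deficient lungs too (0.30). Ei24, a membrane protein of the endoplasmic reticulum, was 0.27 ± 0.11 and 0.18 ± 0.11 higher and passed only in the mean response (0.23 ± 0.08, adjusted p = 0.0453). That call was lost without any array other than WTC 158, WTT 160 or KOC 53, at values from 0.18 to 0.25, while without WTT 160 the Fra-1+/+ change of Ei24 passed (0.36).

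**Figure D2:**
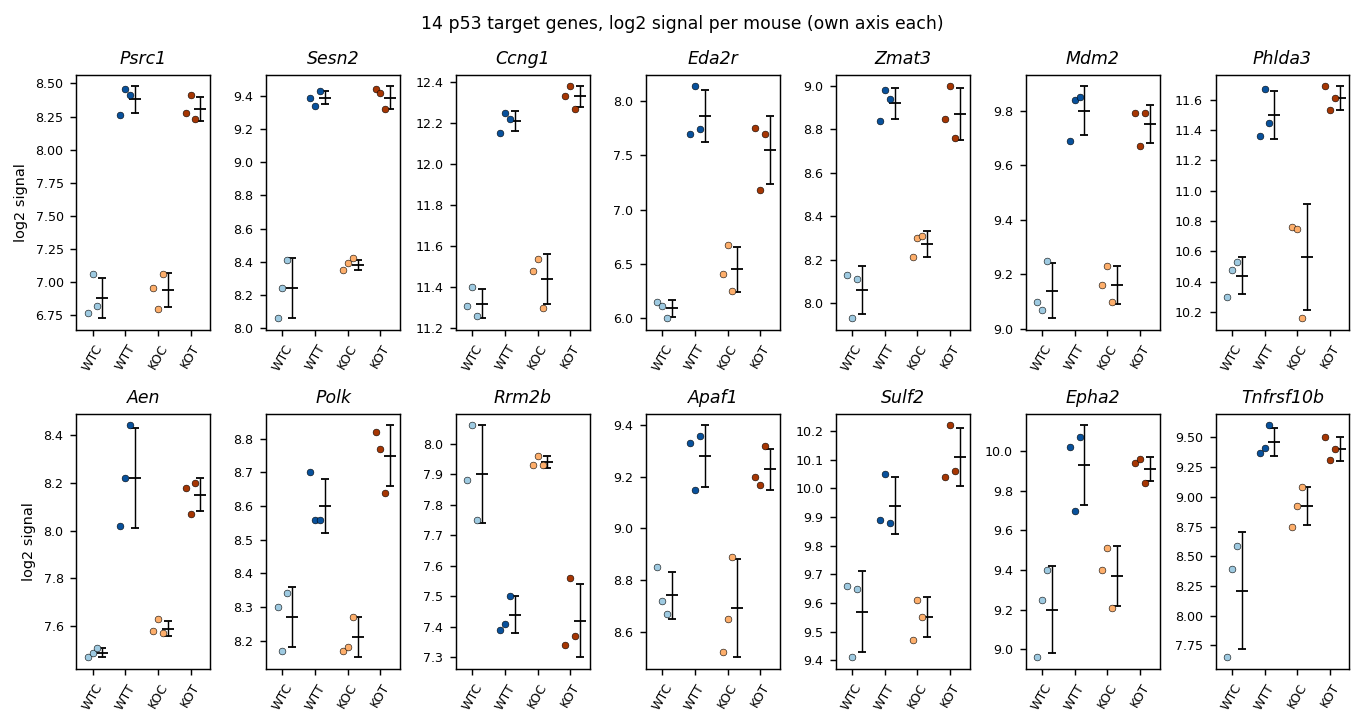
Log2 signal per mouse (points, 3 per group) with mean and SD (line and bar) of the 12 members with the smallest p in the mean response and of Epha2 and Tnfrsf10b, each panel on its own axis that does not start at 0. Bleomycin mice (dark) and PBS mice (light) do not overlap within a genotype in any panel, and Rrm2b alone is lower after bleomycin; WTC 76 lies at 7.65 for Tnfrsf10b.

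The death receptors held the highest response of a member and, in size, both of the largest differences between the genotypes, neither past the test. Eda2r, the receptor for ectodysplasin-A2, was 6.15, 6.11 and 6.0 in WTC and 7.70, 8.14 and 7.74 in WTT, and 6.41, 6.67 and 6.25 in KOC and 7.75, 7.18 and 7.70 in KOT. It rose by 1.77 ± 0.16 (3.41-fold, adjusted p = 1.10e-04) in Fra-1+/+ lungs, the largest of the 31, and by 1.10 ± 0.16 (2.14-fold, adjusted p = 0.00167) in deficient lungs. Every KOC mouse was above every WTC mouse, a difference that did not pass in the limma fit (adjusted p = 0.510), and the KOT and WTT mice overlapped.

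Tnfrsf10b, the mouse receptor for the death ligand TRAIL, was 7.65, 8.39 and 8.59 in WTC and 9.37, 9.41 and 9.60 in WTT, and 8.75, 8.92 and 9.08 in KOC and 9.50, 9.31 and 9.40 in KOT. Bleomycin mice were above PBS mice in both genotypes, and the WTT and KOT mice overlapped. The rise of 1.25 ± 0.19 (2.38-fold, adjusted p = 0.00130) in Fra-1+/+ lungs passed, and the change of 0.49 ± 0.19 (1.40-fold, adjusted p = 0.116) in deficient lungs did not. WTC 76 lies well below the other WTC mice. Without it the Fra-1+/+ rise was 0.97 (adjusted p = 8.95e-04) and the deficient change, still 0.49, passed (adjusted p = 0.0114). WTC 76 is also the only Fra-1+/+ mouse whose animal number is in the range of the deficient ones. Fas, the receptor for Fas ligand and the member with the AP-1 site printed above, did not pass, at 0.29 ± 0.17 and 0.22 ± 0.17, the latter 0.07 without KOC 55 and 0.39 without KOC 67.

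In the DNA repair and nucleotide group 1 of 5 members rose and 2 fell in each genotype. Of all clusters 10.2% rose and 11.3% fell in Fra-1+/+ lungs, and 7.42% and 7.98% in deficient lungs. Counts out of 5 are too small to be read as a trait of the group. Polk, the translesion DNA polymerase kappa, was 8.30, 8.17 and 8.34 in WTC, 8.70, 8.56 and 8.56 in WTT, 8.17, 8.18 and 8.27 in KOC, and 8.82, 8.77 and 8.64 in KOT. It rose by 0.33 ± 0.08 (adjusted p = 0.0104) and 0.54 ± 0.08 (adjusted p = 0.00147). Rrm2b, the p53-inducible subunit of ribonucleotide reductase, was 7.88, 8.06 and 7.75 in WTC, 7.39, 7.41 and 7.50 in WTT, 7.93, 7.96 and 7.93 in KOC, and 7.34, 7.56 and 7.37 in KOT.

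Rrm2b thus fell, by 0.46 ± 0.09 on the log2 scale (adjusted p = 0.00404) in Fra-1+/+ lungs and by 0.52 ± 0.09 (adjusted p = 0.00305) in deficient lungs, with no overlap. Xpc, the sensor of nucleotide excision repair, fell by 0.38 ± 0.08 (adjusted p = 0.00767) and by 0.43 ± 0.08 (adjusted p = 0.00580). Its damage-binding partner Ddb2 (-0.26 ± 0.09 and -0.07 ± 0.09, passing in Fra-1+/+ lungs without WTT 160 at -0.33 or without KOC 67 at -0.26) and the excision nuclease Ercc5 (0.11 ± 0.06 and 0.07 ± 0.06) did not pass. In whole lung, fewer cells that hold a transcript and less of it per cell cannot be told apart.

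The stress metabolism and signalling group held increases and decreases, 4 and 3 of 7 in Fra-1+/+ lungs and 4 and 1 in deficient lungs. The shares of all clusters were 10.2% and 11.3%, and 7.42% and 7.98%. Sesn2, a sestrin that restrains the growth kinase mTORC1, was 8.06, 8.24 and 8.41 in WTC, 9.39, 9.34 and 9.43 in WTT, 8.35, 8.39 and 8.42 in KOC, and 9.44, 9.42 and 9.32 in KOT. It rose by 1.15 ± 0.09 (2.22-fold, adjusted p = 5.36e-05) and 1.01 ± 0.09 (2.01-fold, adjusted p = 1.50e-04). Its relative Sesn1, also a p53 target, went the other way: it fell by 0.47 ± 0.14 (adjusted p = 0.0369) in Fra-1+/+ lungs and changed by -0.29 ± 0.14 (adjusted p = 0.212) in deficient lungs. The Sesn1 call was lost without any of WTC 76, 157 or 158 or WTT 164 (-0.57 to -0.28 over all arrays left out in turn).

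Phlda3, a repressor of the survival kinase Akt, was 10.30, 10.48 and 10.53 in WTC, 11.36, 11.67 and 11.45 in WTT, 10.76, 10.75 and 10.16 in KOC, and 11.69, 11.53 and 11.61 in KOT. It rose by 1.06 ± 0.15 in each genotype (2.08-fold, adjusted p = 8.72e-04 and 0.00138), with KOC 67 low among the PBS mice. Epha2, an ephrin receptor tyrosine kinase of epithelia, was 8.96, 9.25 and 9.40 in WTC, 10.02, 9.70 and 10.07 in WTT, 9.40, 9.51 and 9.21 in KOC, and 9.94, 9.96 and 9.84 in KOT. Its rise was 0.73 ± 0.13 (adjusted p = 0.00251) and 0.54 ± 0.13 (adjusted p = 0.0147), and the deficient call was lost without KOC 67 (0.46) or without KOT 72 (0.53).

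Sulf2, an enzyme that trims heparan sulfate outside the cell, was 9.66, 9.41 and 9.65 in WTC, 9.89, 10.05 and 9.88 in WTT, 9.47, 9.61 and 9.55 in KOC, and 10.04, 10.22 and 10.06 in KOT. The increase was 0.37 ± 0.09 in Fra-1+/+ lungs (adjusted p = 0.0131), lost without WTC 157 (0.29) or without WTT 161 (0.31), and 0.56 ± 0.09 in deficient lungs (adjusted p = 0.00235). Dram1, a lysosomal protein that links p53 to autophagy, fell by 0.53 ± 0.11 (adjusted p = 0.00591) and by 0.58 ± 0.11 (adjusted p = 0.00511) with no overlap. Dcxr, a carbonyl reductase, fell by 0.36 ± 0.11 in Fra-1+/+ lungs (adjusted p = 0.0418) and was -0.03 ± 0.11 in deficient lungs (adjusted p = 0.900). The Dcxr call was lost without any of WTC 76, 157 or 158, WTT 161 or 164, KOC 53, 55 or 67, or KOT 72 (-0.45 to -0.31 over all arrays left out in turn).

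Between genotypes no member passed. Against a background of 0.0427% of all clusters in the bleomycin lungs, 0.0128% in the PBS lungs and 0% for the difference between the responses, 0 of 31 members passed limma's test in each. At an unadjusted p below 0.05 there were 2 members in the bleomycin lungs (6.45%, beside 10.6% of all clusters), 4 in the PBS lungs (12.9%, beside 9.82%) and 3 for the difference (9.68%, beside 5.10%). With the local-pooled-error (LPE) test that the study's methods name, at an adjusted p below 0.01, the member count was again 0 in each, beside 0.705%, 1.79% and 1.01% of all clusters. None of these shares stands for more than 4 members.

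The members with the smallest p for the difference between responses were the death receptors Eda2r and Tnfrsf10b, and Zmat3. The response of Tnfrsf10b was 0.77 smaller in deficient lungs (difference -0.77, 95% interval -1.36 to -0.17, adjusted p = 0.933), and that of Eda2r 0.67 smaller (-0.67, interval -1.18 to -0.16, adjusted p = 0.914). For Zmat3 the difference was -0.26 (interval -0.52 to -0.00, adjusted p = 0.963). In the PBS lungs Tnfrsf10b was 0.71 ± 0.19 higher in deficient mice (adjusted p = 0.404), Eda2r 0.36 ± 0.16 and Zmat3 0.21 ± 0.08 higher. In the bleomycin lungs the genotypes differed by -0.06 ± 0.19, -0.31 ± 0.16 and -0.05 ± 0.08 for the 3 genes. The Eda2r value was -0.13 without KOT 80 and -0.17 without WTT 161, and by LPE, which compares medians, its difference between responses was -0.34. The WTC mice enter both the PBS comparison and the difference between responses. Without WTC 76 the Tnfrsf10b difference between responses became -0.49 and the PBS difference 0.43.

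For several members the interval of the difference was narrower than for Plk3. It ran from -0.23 to 0.24 for Ccng1, from -0.31 to 0.17 for Mdm2, from -0.44 to 0.18 for Psrc1, from -0.41 to 0.12 for Sesn2 and from -0.31 to 0.32 for Apaf1. A change of the response by 2-fold, which is 1 on this scale, lies outside these intervals. The Fra-1+/+ responses of Ccng1 (0.89), Mdm2 (0.66) and Apaf1 (0.53) were themselves below 1, so even their full loss would not reach it. Smaller differences between the genotypes lie inside the intervals. For Plk3, with its spread of mice, the interval of -1.12 to 0.61 reaches past a 2-fold change. The intervals of Tnfrsf10b and Eda2r given above reach past it too. The members under an unadjusted p of 0.05 in the bleomycin lungs were Btg2 (-0.24 ± 0.10) and Fas (-0.37 ± 0.17), and in the PBS lungs Ppm1d (0.21 ± 0.08) and Perp (0.28 ± 0.12) besides Zmat3 and Tnfrsf10b.

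**Figure D3:**
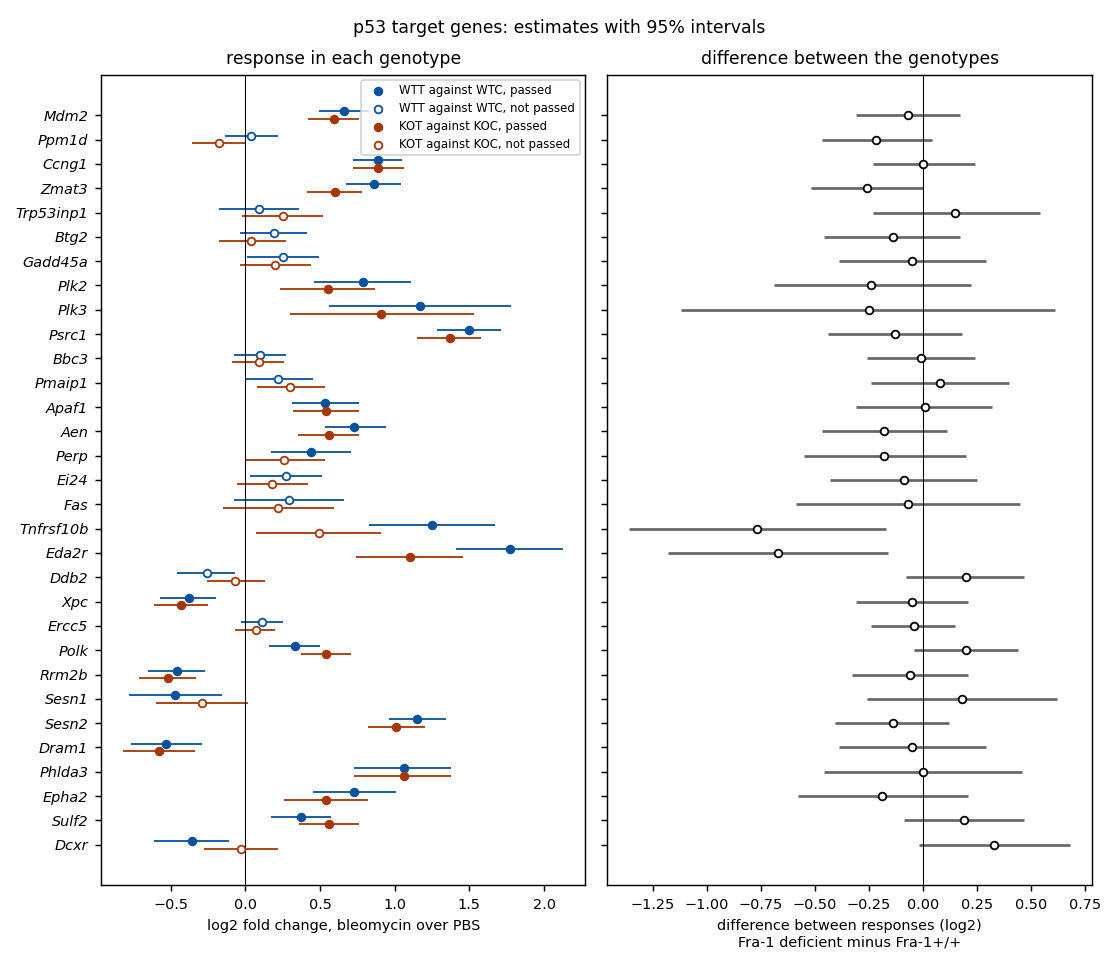
Left, log2 fold change of bleomycin over PBS with its 95% interval for each member in Fra-1+/+ (blue) and Fra-1 deficient lungs (brown), filled where the adjusted p was below 0.05. Right, the difference between these responses with its 95% interval; none passed, and Tnfrsf10b (-0.77) and Eda2r (-0.67) are the lowest.

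By the LPE test at an adjusted p below 0.01, 12 members rose in Fra-1+/+ lungs (38.7%, beside 3.45% of all clusters) and 7 in deficient lungs (22.6%, beside 4.44%). The 7 were Mdm2, Ccng1, Plk3, Psrc1, Eda2r, Sesn2 and Phlda3, and they were among the 12. No member was lower by that test in either genotype, where 4.47% and 3.63% of all clusters were. In the mean response by LPE, Rrm2b (adjusted p = 0.00246) and Dram1 (adjusted p = 9.41e-04) were lower, while the decreases of Xpc, Sesn1 and Dcxr passed in the limma fit alone.

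The genes that govern p53 went both ways, at shares near the background. Of 19 measured regulators 2 rose and 3 fell in Fra-1+/+ lungs, where 10.2% of all clusters rose and 11.3% fell. In deficient lungs 2 rose and 2 fell, where 7.42% and 7.98% of all clusters did, and the medians were -0.09 and -0.06. The 2 that rose in each were Ppp1r13l, the inhibitory ASPP protein that holds p53 back (0.79 ± 0.09 and 0.87 ± 0.09), and Chek1, a damage checkpoint kinase (0.47 ± 0.12 and 0.68 ± 0.12). The Chek1 call in Fra-1+/+ lungs was lost without WTC 157 (0.34) or without WTT 161 (0.44). Both stimulating ASPP genes fell, Trp53bp2 by 0.77 ± 0.13 in each genotype and Ppp1r13b by 0.54 ± 0.11 in each. Mdm4, the partner of Mdm2, did not pass, at -0.01 ± 0.07 and 0.15 ± 0.07.

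Beside the same shares of all clusters, a further list of 28 measured genes reported elsewhere as p53 targets gave 12 increases and 2 decreases in each genotype. Its medians were 0.31 and 0.26. Its genes with the smallest p were Gtse1, which shuttles p53 out of the nucleus (0.91 ± 0.07 and 1.19 ± 0.07), the cytokine Lif (1.80 ± 0.14 and 1.60 ± 0.14), the spindle gene Ckap2 (1.39 ± 0.11 and 1.01 ± 0.11) and Thbs1, thrombospondin 1 (2.03 ± 0.18 and 1.70 ± 0.18). Gtse1 and Ckap2 are also made by dividing cells, and Thbs1 by activated fibroblasts and platelets.

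Other programmes of stress and growth moved in the same lungs. For the lists here and below, 10.2% of all clusters rose and 11.3% fell in Fra-1+/+ lungs, and 7.42% and 7.98% in deficient lungs. Mitotic genes rose in 9 of 11 in Fra-1+/+ lungs and in 11 of 11 in deficient lungs (medians 0.90 and 1.03), among them the survivin gene Birc5 (0.90 ± 0.15 and 0.84 ± 0.15) and Cdk1 (1.29 ± 0.23 and 1.15 ± 0.23). Psrc1 acts in mitosis as well. Of 15 genes of the integrated stress response, a programme that can also raise Sesn2, 5 rose and 1 fell in Fra-1+/+ lungs and 2 rose and 1 fell in deficient lungs. Psat1, of serine synthesis, rose by 1.03 ± 0.12 and 0.81 ± 0.12, the stress factor Atf3 by 1.19 ± 0.21 and 1.39 ± 0.21, and the lipoprotein receptor gene Vldlr fell by 0.51 ± 0.10 and by 0.65 ± 0.10.

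Immediate early genes, which rise within minutes of handling or injury, gave 5 increases of 10 in Fra-1+/+ lungs and 4 in deficient lungs. Fos rose by 0.95 ± 0.16 and 0.63 ± 0.16, Junb by 0.96 ± 0.18 and 0.83 ± 0.18, and Egr1 by 1.16 ± 0.29 in each. In deficient lungs the calls of Fos (0.53 to 0.63) and Egr1 (0.98 to 1.17) were lost without KOC 53 or 67 or KOT 72 or 81, and in Fra-1+/+ lungs that of Egr1 without WTC 157 (0.90) or WTT 164 (1.00). In the WTT mice the mean level of the immediate early genes ran from 9.27 to 9.79, and in the WTC mice from 8.85 to 9.32. In the KOT mice it ran from 9.10 to 9.35, and in the KOC mice from 8.72 to 9.26. What part these programmes have in the values of the p53 targets was not tested.

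Markers of lung cell types changed along with the p53 targets, and cells were not counted. Of 11 markers of the transitional alveolar epithelium, the state that alveolar type 2 cells pass through after injury, 8 rose in each genotype, led by Cldn4 (2.18 ± 0.15 and 2.22 ± 0.15) and Sprr1a (3.62 ± 0.30 and 3.45 ± 0.30). Of the same list Cldn18, a tight junction gene of normal alveoli, fell in both (-0.67 ± 0.16 and -0.64 ± 0.16) and the integrin gene Itgb6 fell in Fra-1+/+ lungs (-0.39 ± 0.13); they were named after their values were seen. The mean level of that list ran from 10.03 to 10.27 in WTC, 10.86 to 11.14 in WTT, 9.95 to 10.09 in KOC and 10.85 to 11.06 in KOT. Its member Sfn also stands in the list of further p53 targets. Macrophage markers rose in 8 of 10 in each genotype, as C1qb did (1.93 ± 0.19 and 1.76 ± 0.19), and fell in 1 of 10 in each, with list means of 9.73 to 9.98 in the PBS mice and 10.66 to 11.28 in the bleomycin mice. The marker that fell was the lysozyme gene Lyz2 (-0.30 ± 0.08 and -0.28 ± 0.08), which alveolar type 2 cells also express.

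Markers of alveolar type 1, alveolar type 2 and endothelial cells were mostly lower. Alveolar type 1 markers fell in 6 of 8 in each genotype (Hopx by 1.19 ± 0.15 and by 1.01 ± 0.15), alveolar type 2 markers in 5 and 4 of 8 (Sftpa1 by 0.70 ± 0.14 and by 0.77 ± 0.14), and endothelial markers in 7 of 8 in each (Pecam1 by 0.38 ± 0.08 and by 0.55 ± 0.08). Airway markers fell in 3 of 5 in Fra-1+/+ lungs and 1 of 5 in deficient lungs, the one being Cyp2f2 (-1.26 ± 0.17 and -0.82 ± 0.17). Fibroblast markers went both ways, 3 up and 2 down of 8 in Fra-1+/+ lungs and 2 and 2 in deficient lungs. Of these Col3a1 was up by 1.48 ± 0.15 and 0.92 ± 0.15. The list means of the PBS mice ran from 11.86 to 12.07 for type 1 cells, 12.48 to 12.65 for type 2 cells and 11.18 to 11.40 for endothelium, and those of the bleomycin mice from 11.10 to 11.55, 11.80 to 12.39 and 10.69 to 11.04. No marker is at 0 on this scale, and detection calls were not used here.

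Blood cell markers were the least even between mice. Of 9 neutrophil genes 2 rose in Fra-1+/+ lungs and 1 in deficient lungs, Mmp8 in both (2.86 ± 0.46 and 1.93 ± 0.46) and Ngp in Fra-1+/+ lungs (1.49 ± 0.26, against -0.38 ± 0.26). The Mmp8 call in deficient lungs was lost without KOC 55 (1.92), KOT 72 (1.66) or KOT 81 (1.59). The mean of the list ran from 8.51 to 10.15 in WTT and from 7.86 to 9.05 in KOT. Of 6 B cell markers 3 fell in Fra-1+/+ lungs and 0 in deficient lungs by limma, Cd79b by 1.56 ± 0.34 against -0.48 ± 0.34, and of 7 T cell markers 1 and 0 fell. Whether the cell make-up of the lung changed, and what part that has in the values of the p53 targets, was not tested.

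**Figure D4:**
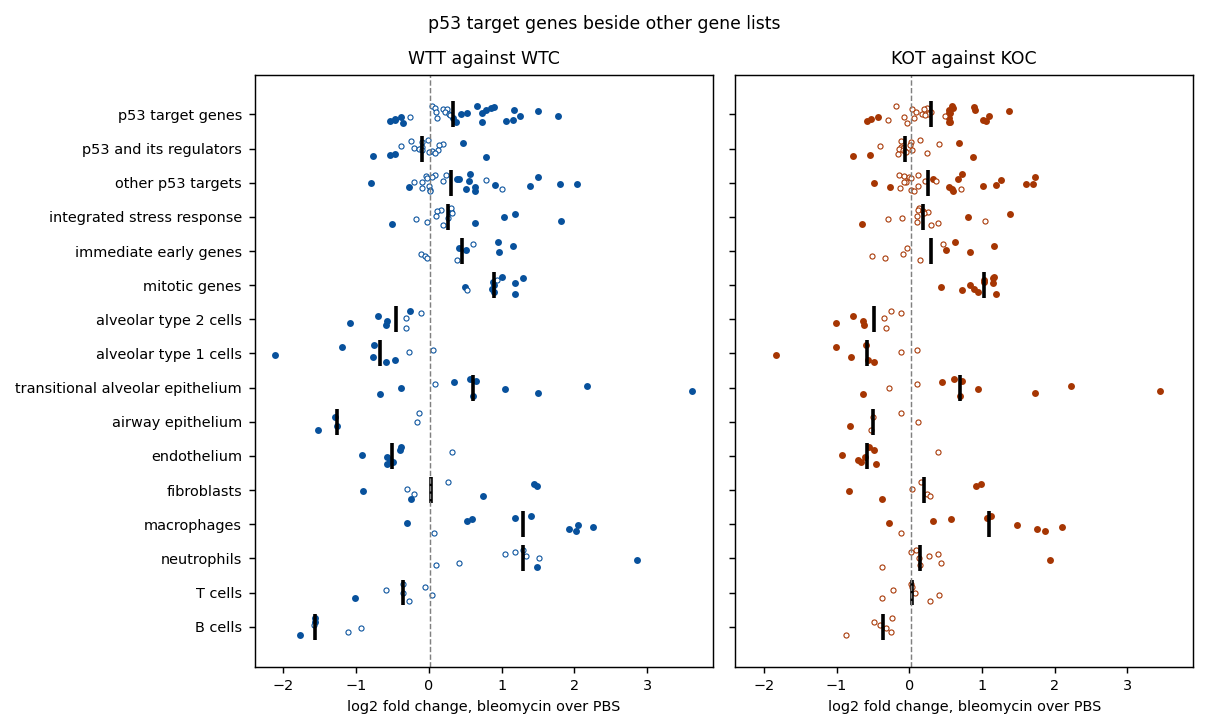
Log2 fold change of bleomycin over PBS for each gene (points, filled where the adjusted p was below 0.05) of the p53 targets and of 15 other lists, in Fra-1+/+ (left) and Fra-1 deficient lungs (right), with the median of each list (black bar) and of all clusters (dashed line, 0.02). The p53 targets have medians of 0.33 and 0.30, between those of their regulators (-0.09 and -0.06) and of mitotic genes (0.90 and 1.03).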

How the data were processed

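Per the paper's methods the authors quantile normalised the Affymetrix MoGene 1.0ST v1 signals over all samples, summarised them per cluster with the RMA median polish of Affymetrix Power Tools (version not given in the sources used here), and deposited log2 values. Their detection filter was not applied. One mean per group was fitted to all 12 arrays (limma 3.58.1 in R 4.3.3, 8 residual degrees of freedom), with two-sided moderated tests adjusted by Benjamini-Hochberg over the 23410 clusters with a symbol (21789 with 1 symbol). The members and lists were chosen with earlier results of these data known. All members are named; values of every mouse are given for the 12 with the smallest p in the mean response and for Tnfrsf10b, Epha2, Zmat3 and Apaf1, which the study's text or gene lists name. From other lists, up to 4 genes of smallest p are named, with Mdm4 and Fosl1. Cldn18, Itgb6 and Lyz2 are named besides as markers that fell in lists that mostly rose, and Sfn because it stands in another list too. Replicates are single mice, and 3 a group limit precision. The study calls the Fra-1+/+ mice littermates of the deficient ones, but the labels give no litter for any mouse. The LPE test was rewritten (100 intensity bins, spline with 10 degrees of freedom) and compares medians. The limma and LPE tests were also run on simulated, independent normal values. That check required the right size and sign of planted changes and set no limit on false calls. Alternatives covered threshold, moderation, array weights, scaling, filter, cluster choice and each array left out. Promoter windows are from RefSeq (GRCm38.p6).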

Additional observations from a re-analysis of the deposited data

How the results depend on the processing

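Of 38 member responses that passed, 17 passed under every alternative tried and 0 changed direction. By LPE at an adjusted p below 0.01 the members called numbered 12 in Fra-1+/+ lungs, 7 in deficient lungs and 15 in the mean response, beside 21, 17 and 23. Under the other alternatives that kept all arrays the counts ran from 15 to 22, from 14 to 21 and from 19 to 24, and with each array left out in turn from 17 to 23, from 14 to 18 and from 21 to 25. Between genotypes and for the difference between responses the count was 0 under every one of these.

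Results that had not passed changed sign near 0 when single arrays were left out. Over the arrays left out in turn, Ppm1d in Fra-1+/+ lungs ran from -0.02 (without WTC 76) to 0.09. In deficient lungs Btg2 ran from -0.04 (without KOC 53) to 0.11, Ddb2 from -0.11 to 0.00 (without KOC 67), and Dcxr from -0.16 to 0.06 (without KOT 81, and 0.01 without KOC 67 or without KOT 72). Between the bleomycin groups Zmat3 ran from -0.11 to 0.01 (without KOT 81) and Tnfrsf10b from -0.11 to 0.01 (without WTT 164). Mdm4 in Fra-1+/+ lungs ran from -0.03 to 0.03 (without WTC 76, and 0.00 without WTT 160). With equal array medians Btg2 in deficient lungs was -0.00, and by LPE Mdm4 in Fra-1+/+ lungs was 0.03. The cause was not tested. Tnfrsf10b in deficient lungs passed with the 6 arrays of that genotype alone (adjusted p = 0.0226), with array weights (adjusted p = 0.0126) and without WTC 76. Animal numbers are not shared between groups, so no paired analysis was possible because the labels pair no mice.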
